A study of Mus musculus with 45 samples.

Results

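The genes described here are 10 markers and regulators of epithelial and mesenchymal state, taken by symbol from the 28454 genes of the count table: Cdh1, Epcam, Esrp1, Cdh2, Vim, Zeb1, Zeb2, Snai1, Snai2 and Twist1. Their mRNA was measured in 45 libraries of cultured mouse mammary tumour cells that all arose in MMTV-cMYC mice, in which a mammary tumour virus promoter drives the oncogene Myc. In control medium there were 30 libraries of 10 lines, with 3 cultures of each. The MYAZ lines (MYAZ16.1e, MYAZ12.3i and MYAZ6.6g) came from mammary tumours and are the less metastatic cells. Myc310 is a single line from a mouse with multiple tumours, the LM lines (LM1, LM2 and LM3) were grown out of lungs after Myc310 cells had been injected into the mammary fat pad, and the LM-LM lines (LM1-LM, LM2-LM and LM3-LM) come from lungs after a further passage through animals. Myc310, LM and LM-LM therefore share 1 origin and are called the Myc310 lineage below. MYAZ16.1e, Myc310, LM1 and LM1-LM were also kept for 6 h in medium without cysteine and cystine (12 libraries), and 3 libraries hold a MYAZ12.3i derivative labelled NDI1. The cultures of 1 line are called technical replicates in the study's design. In comparisons of MYAZ, LM and LM-LM, p-values over libraries measure the spread between cultures as well as between lines. Myc310 is 1 line and adds no spread between lines. In the tests of deprivation, of NDI1 and between the lines of a subtype, each group holds cultures of 1 line. Those p-values measure the spread between cultures only.

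Epithelial cells are held together by E-cadherin, the product of Cdh1, and carry the adhesion molecule EpCAM on their surface, whereas Esrp1 encodes a splicing factor that keeps epithelial forms of many transcripts. In an epithelial-mesenchymal transition (EMT) these genes are shut down and N-cadherin (Cdh2) and the intermediate filament vimentin (Vim) are gained. The transcription factors encoded by Zeb1, Zeb2, Snai1 and Snai2 bind E-box sequences and repress Cdh1 and other epithelial genes, and Twist1 encodes a basic helix-loop-helix factor that also drives the transition. In the GRCm38 annotation, Cdh1 (ENSMUSG00000000303) lies on chromosome 8 from 106603351 to 106670246, plus strand, and Epcam (ENSMUSG00000045394) on chromosome 17 from 87635979 to 87651129, plus strand. Vim (13573927 to 13582826, plus), Zeb2 (44983632 to 45117395, minus) and Snai1 (167538195 to 167542814, plus) are on chromosome 2. Twist1 lies on chromosome 12 from 33957671 to 33959829, plus strand, Snai2 on chromosome 16 from 14705852 to 14709385, plus strand, and Esrp1 on chromosome 4 from 11331933 to 11386783, minus strand. Exons of Zeb2 overlap those of the antisense gene Zeb2os, which had 3 to 45 counts per library against 750 to 3335 for Zeb2.

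RefSeq promoter windows (GRCm38.p6) were matched by symbol for 5 of the 10 genes, namely Epcam, Vim, Zeb2, Snai1 and Twist1. The 250 bases before the start site are shown for Epcam, an epithelial gene that was near 0 in the Myc310 lineage, and for Snai1 and Twist1, a pair of EMT factors whose levels differed in opposite directions between the lineage and MYAZ. Capitals mark the E-box CACCTG on either strand (CAGGTG on the strand shown), the sequence that ZEB and SNAIL proteins bind.
Epcam, chr17:87635729-87635978, plus strand: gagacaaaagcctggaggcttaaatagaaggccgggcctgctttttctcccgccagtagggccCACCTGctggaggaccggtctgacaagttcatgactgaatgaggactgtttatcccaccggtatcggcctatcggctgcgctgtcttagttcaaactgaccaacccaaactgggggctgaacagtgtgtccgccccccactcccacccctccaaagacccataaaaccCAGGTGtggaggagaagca
Snai1, chr2:167537945-167538194, plus strand: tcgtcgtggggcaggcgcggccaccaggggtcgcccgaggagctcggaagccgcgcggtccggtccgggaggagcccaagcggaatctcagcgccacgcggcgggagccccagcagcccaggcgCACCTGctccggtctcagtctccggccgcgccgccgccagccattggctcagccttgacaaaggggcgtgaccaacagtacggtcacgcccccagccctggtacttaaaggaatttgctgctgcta
Twist1, chr12:33957421-33957670, plus strand: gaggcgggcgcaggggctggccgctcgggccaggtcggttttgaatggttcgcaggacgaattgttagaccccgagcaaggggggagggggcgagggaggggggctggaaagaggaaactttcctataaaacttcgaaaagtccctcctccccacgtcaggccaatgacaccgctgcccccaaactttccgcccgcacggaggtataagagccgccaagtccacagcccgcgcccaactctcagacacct
The Epcam window held 2 such E-boxes, with first bases at positions -187 and -19 from the start, and the Snai1 window held 1 at -126. None was found in the windows of Twist1, Vim or the 4 Zeb2 start sites. Of all 32851 windows of this length, 17.2% held at least 1 CACCTG on either strand, and 66.2% held the looser E-box CANNTG, of which CACCTG is 1 form. The matches describe the sequence, and no binding was measured.

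Library totals on genes ranged from 19517859 to 29019988 counts (median 22899900), and 3 counts correspond to between 0.102 and 0.155 CPM (a gene's counts scaled to a common library total), the level per library used below. CPM were computed after TMM normalization over the 45 libraries. All pairs of cultures of 1 line differed by more than sampling noise. Keratins of luminal mammary epithelium were present in each line: Krt8 lay between 219 and 1700 CPM and Krt18 between 99.9 and 546 CPM as control line means. The basal keratins Krt5 and Krt14 stayed under 1 CPM in each line, but the summed mammary basal list was 337 to 358 CPM in MYAZ12.3i and 279 to 287 in MYAZ6.6g, led by Acta2, and 19.5 to 24.1 in MYAZ16.1e and 7.45 to 18 in the lineage, led by Mylk. Some markers of other cell types were almost absent, with at most 5 counts per library for Ptprc (leukocytes), 6 for Pecam1 (endothelium), 3 for Thy1 (fibroblasts) and 0 for Fap. Others on the same lists were expressed. In the endothelial list Flt1 was at 53.1 to 103 CPM in MYAZ and 19.2 to 66.4 in the lineage, and Kdr at 4.09 to 6.26 and 0.0144 to 0.175. In the alveolar list Aqp5 was at 5.24 to 15.4 CPM in MYAZ and 0.07 to 1.32 in the lineage. The lists were also summed. The fibroblast list, led by Fbln1, Pdgfra, Pdgfrb and Col3a1, was 23.7 to 143 CPM in MYAZ, 1.74 to 2.2 in Myc310, 15.6 to 130 in LM and 34.2 to 223 in LM-LM. The leukocyte list, almost wholly Cd68, summed to 4.17 to 6.31 CPM in MYAZ and 9.54 to 19.7 in the lineage, the endothelial list to 64.1 to 123 and 29.9 to 80.1, and the alveolar list to 6.41 to 21.4 and 0.457 to 7. The leukocyte and basal sums did not overlap between MYAZ and the lineage, the fibroblast sums were lower than in MYAZ without overlap in Myc310 alone, and the endothelial and alveolar sums overlapped. Their part in the results was not tested. In bulk libraries, fewer cells expressing a gene and less RNA per cell cannot be told apart.

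The 3 epithelial genes were at or near 0 in every line, MYAZ included. Cdh1 had 0 counts in 33 of the 45 libraries and at most 6 counts in any. In control medium its counts were 3, 3 and 4 in MYAZ16.1e, 0, 3 and 4 in MYAZ12.3i and 0 in the 3 MYAZ6.6g cultures, while the 21 libraries of the lineage summed to 3 counts. Esrp1 had 0 counts in each of the 30 control libraries of the 10 lines, which allows up to 3 counts per library, and 0 to 2 counts elsewhere. Both genes were too low for the filter on low counts. In the fit without a filter, Cdh1 was called lower than in MYAZ for LM (adjusted p = 0.00783) and LM-LM (adjusted p = 0.0188) but not for Myc310 (adjusted p = 0.0504), from at most 4 counts in any of these libraries, so that no size is given. Epcam was low but measurable in MYAZ, with 12, 15 and 21 counts in MYAZ16.1e, 6, 6 and 9 in MYAZ12.3i and 14, 7 and 8 in MYAZ6.6g. The MYAZ libraries thus had 98 Epcam counts in all, against 0 with Myc310, 2 with LM and 3 with LM-LM, and no lineage library in control medium reached the lowest MYAZ library. The ratio of MYAZ to LM was 47.1 (95% exact interval 12.7 to 394) and that of MYAZ to LM-LM 32.4 (10.8 to 160), with intervals that cover counting error only. Epcam passed the filter through MYAZ alone, where its mean was 0.459 ± 0.194 CPM (SD, n = 3 lines), so that it had to differ and its fitted p-values are not given.

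N-cadherin mRNA was present in MYAZ and nearly absent from the Myc310 lineage. Its gene Cdh2 (ENSMUSG00000024304) spans 16588877 to 16809246 of chromosome 18 in GRCm38, on the minus strand. Cdh2 was measured at 79.1, 75.5 and 74.95 CPM in the MYAZ16.1e cultures, at 72.5, 68.4 and 72.6 in MYAZ12.3i and at 91.6, 97.3 and 95.1 in MYAZ6.6g. Each MYAZ library had 1492 to 2332 Cdh2 counts, whereas the 3 Myc310 libraries had 2, 4 and 1 counts, the 9 LM libraries 0 to 4 and the 9 LM-LM libraries 0 to 3. The groups were thus far apart. The ratio of MYAZ to Myc310 was 802 (95% exact interval 389 to 1990), that of MYAZ to LM 1100 (668 to 1970) and that of MYAZ to LM-LM 2130 (1080 to 4950), for counting error only. Cdh2, like Epcam, passed the filter through MYAZ alone, and its fitted p-values are not given. The order within the lineage rested on counts of 4 or fewer and could not be resolved at this depth.

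**Figure D1:**
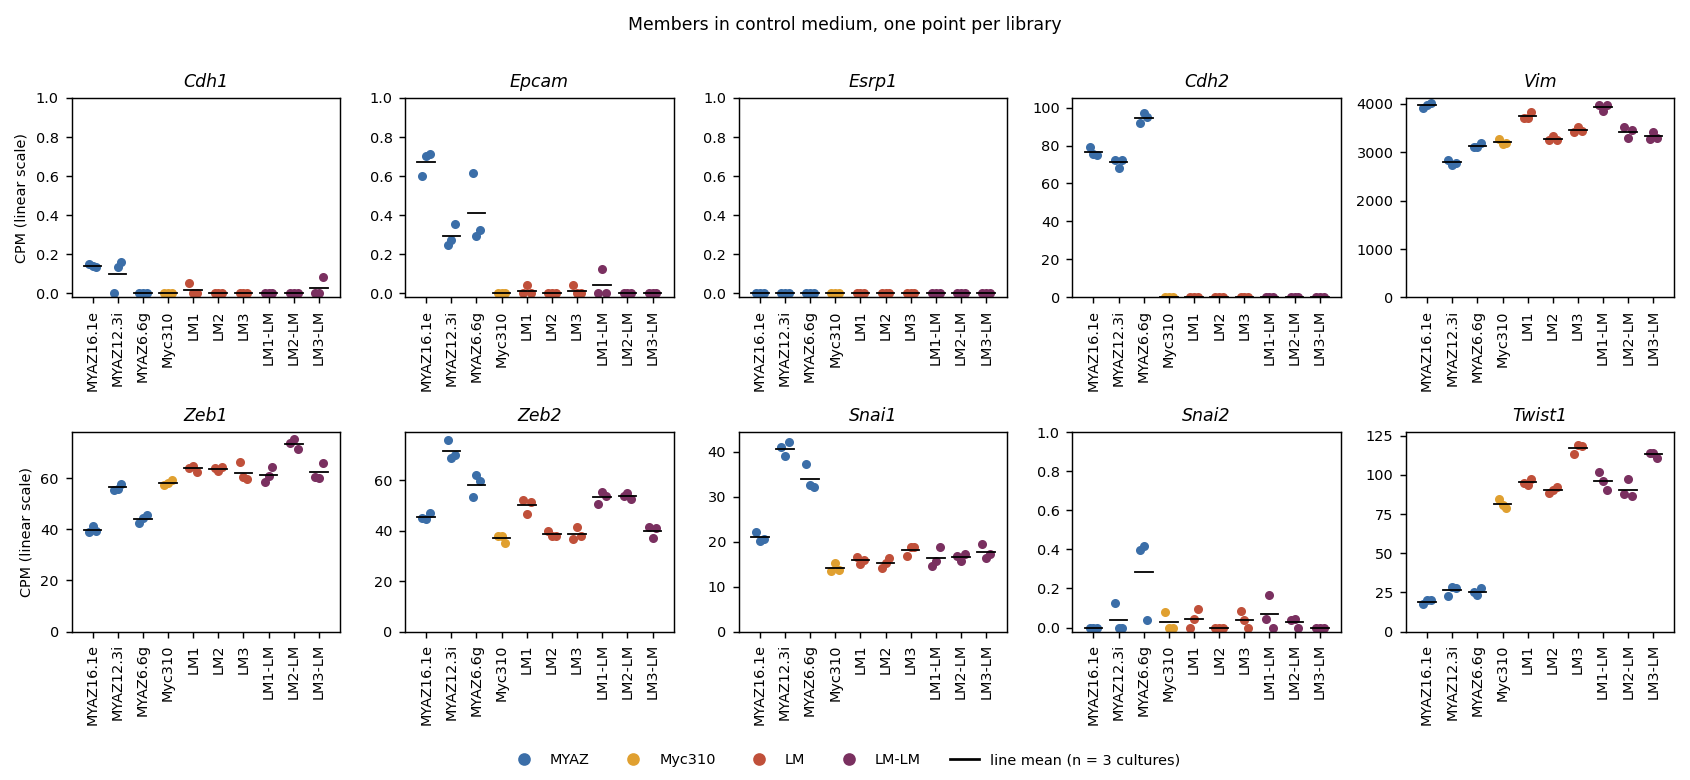
Levels of the 10 genes in control medium, in CPM on linear axes that differ between panels, for 10 lines; points are libraries and bars are line means of 3 cultures. Cdh1, Epcam, Esrp1 and Snai2 stay below 1 CPM, Cdh2 is at 68.4 to 97.3 CPM in the MYAZ libraries and near 0 elsewhere, and Twist1 is at 17.7 to 28.2 CPM in MYAZ and 78.8 to 119 CPM in the Myc310 lineage.

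Vim was abundant in each line, at 2586 to 4351 CPM over the 45 libraries. Per kilobase of exon its median level was 720 CPM, compared with 1293 for Actb, which encodes beta-actin, and 198 for the keratin gene Krt18. In control medium it ranged from 2745 to 4021 CPM in MYAZ (median 3106), 3181 to 3266 in Myc310, 3254 to 3834 in LM (median 3445) and 3284 to 3974 in LM-LM (median 3460), so that the groups overlapped. Relative to MYAZ the log2 fold change of Vim was -0.04 in Myc310 (95% interval -0.23 to 0.15, adjusted p = 0.733), 0.08 in LM (-0.05 to 0.22, adjusted p = 0.283) and 0.09 in LM-LM (-0.04 to 0.23, adjusted p = 0.225), and none passed the threshold. MYAZ16.1e had the highest mean of the 10 lines (3971 CPM) and MYAZ12.3i the lowest (2794 CPM). When MYAZ16.1e was left out, Vim gave 0.24 in LM (adjusted p = 9.27e-05) and 0.25 in LM-LM (adjusted p = 5.39e-05).

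The ZEB factors differed modestly and in opposite directions. Zeb1 (ENSMUSG00000024238) is a plus-strand gene at 5591860 to 5775467 of chromosome 18 (GRCm38). Zeb1 was measured at 39.0 to 57.8 CPM in MYAZ (median 44.6), at 57.4, 58.1 and 59.5 in Myc310, at 59.8 to 66.5 in LM (median 64.1) and at 58.6 to 75.3 in LM-LM (median 64.6). All LM and LM-LM libraries were above all MYAZ libraries, while Myc310 overlapped with MYAZ12.3i. Against MYAZ the log2 fold change of Zeb1 was 0.31 ± 0.10 (SE) in Myc310 (adjusted p = 0.00791), 0.44 ± 0.07 in LM (adjusted p = 3.32e-06) and 0.47 ± 0.07 in LM-LM (adjusted p = 9.15e-07). The Myc310 call was lost without replicate 3 (adjusted p = 0.0548) and with the line as a random block (adjusted p = 0.137). Zeb2 ranged from 44.8 to 75.8 CPM in MYAZ (median 59.6), and was 35.1 to 38.0 in Myc310, 36.7 to 52.2 in LM (median 40.0) and 37.1 to 55.1 in LM-LM (median 52.5). Myc310 was below each MYAZ library, but LM1 overlapped with MYAZ16.1e, the lowest MYAZ line, and the higher LM-LM libraries lay above MYAZ16.1e and overlapped with MYAZ6.6g. The log2 fold change of Zeb2 was -0.67 ± 0.15 (SE) in Myc310 (adjusted p = 0.000454), -0.47 ± 0.10 in LM (adjusted p = 0.000238) and -0.28 ± 0.10 in LM-LM (adjusted p = 0.0191). The LM-LM call was lost in 7 of 16 alternatives, among them each that left out 1 replicate number (adjusted p from 0.0622 to 0.0865), and counts summed per line did not carry the LM call either (adjusted p = 0.111). Exact permutation tests on line means gave p = 0.1 for Zeb1 in LM and LM-LM, 0.2 for Zeb2 in LM and 0.4 for Zeb2 in LM-LM (two-sided, smallest possible 0.1).

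Of the SNAIL factors, Snai1 was lower in the Myc310 lineage and Snai2 was close to 0. Snai1 lay between 20.2 and 42.1 CPM in MYAZ (median 32.7), at 13.4, 15.2 and 13.8 CPM in the Myc310 cultures, between 14.2 and 18.8 in LM (median 16.4) and between 14.6 and 19.6 in LM-LM (median 16.8). Each lineage library was below each MYAZ library, although the MYAZ lines were themselves apart, with means of 21.0 CPM in MYAZ16.1e, 40.7 in MYAZ12.3i and 34.1 in MYAZ6.6g. Relative to MYAZ, Snai1 had a log2 fold change of -1.18 ± 0.18 (SE) in Myc310 (adjusted p = 3.85e-06), -0.96 ± 0.12 in LM (adjusted p = 7.35e-08) and -0.94 ± 0.12 in LM-LM (adjusted p = 8.83e-08), and it passed the threshold in each alternative run for these comparisons. Snai2 had 0 counts in 21 of the 45 libraries and did not pass the filter. Its control counts were 0 in the 3 MYAZ16.1e cultures, 3, 0 and 0 in MYAZ12.3i, 9, 10 and 1 in MYAZ6.6g, and 0 to 4 in the lineage. MYAZ6.6g was thus the only control line with a library above 4 counts.

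Twist1 was the member with the largest increase in the lineage. Its level was 17.7, 19.8 and 19.9 CPM in MYAZ16.1e, 22.4, 28.2 and 28.0 in MYAZ12.3i and 25.3, 23.3 and 27.8 in MYAZ6.6g. In Myc310 it was 84.8, 80.6 and 78.8 CPM, in LM it ranged from 88.5 to 119 (median 95.02) and in LM-LM from 86.6 to 114 (median 97.6). The lowest lineage library was above the highest MYAZ library by more than the whole MYAZ range. The fold against MYAZ was 3.43 in Myc310 (log2 1.78 ± 0.12 SE, adjusted p = 2.08e-13), 4.28 in LM (log2 2.10 ± 0.09, adjusted p = 6.78e-18) and 4.17 in LM-LM (log2 2.06 ± 0.09, adjusted p = 9.48e-18). The calls remained past the threshold in each alternative run, and an exact permutation test on line means gave p = 0.1 for both LM and LM-LM (two-sided, smallest possible 0.1).

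**Figure D2:**
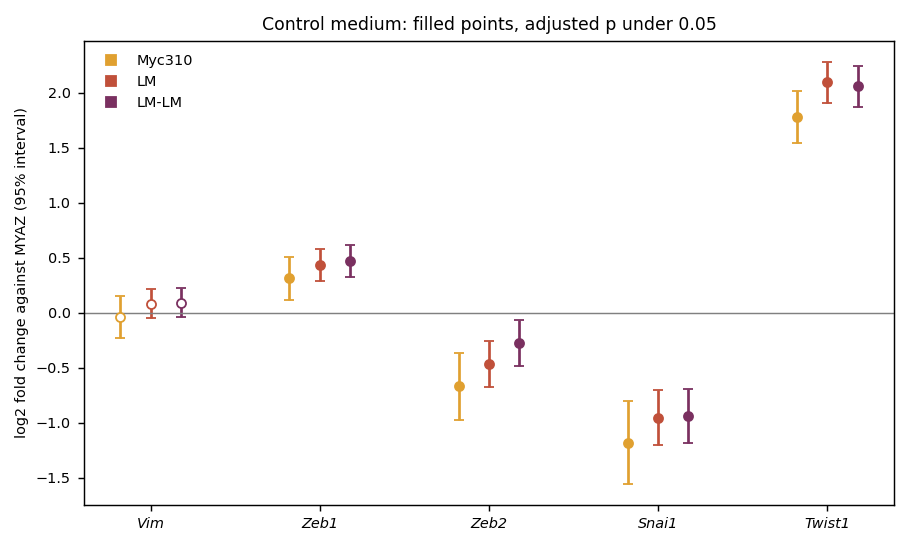
Log2 fold changes against MYAZ in control medium with 95% intervals for the 5 genes well above 0 in both groups, in Myc310, LM and LM-LM; filled points passed an adjusted p of 0.05 in edgeR's quasi-likelihood test. Twist1 lies near 2 and Snai1 near -1 in each group, Zeb1 is above and Zeb2 below 0, and the Vim intervals include 0.

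Of the 7 tested members, Epcam and Cdh2 entered the test through MYAZ alone and had to differ from it, and they are left out of the next counts. Of the other 5, 4 passed the threshold against MYAZ in Myc310, where 50.9% of 13795 tested genes did (23.8% higher and 27.1% lower). The same count of 4 was found in LM (60.8% of genes, 30.3% higher and 30.5% lower) and in LM-LM (62.8%, 30.5% higher and 32.3% lower). Most genes differed between these groups, so that a call alone sets no member apart. The called members were the same in the 3 comparisons: Zeb1 and Twist1 were higher and Zeb2 and Snai1 lower, and the 3 comparisons share the MYAZ libraries. Within the lineage, where Epcam and Cdh2 had too few counts to be compared, edgeR called 0 of the other 5 between LM and Myc310 (4.94% of genes) and 0 of 5 between LM-LM and LM (0.768%). DESeq2 also called 0 in both, and at an unadjusted threshold of 0.05 there was 1 member (Twist1) between LM and Myc310 and 0 between LM-LM and LM. The LM and Myc310 libraries did not overlap for Twist1, with a log2 difference of 0.32 (95% interval 0.06 to 0.57, adjusted p = 0.158), nor for Zeb1, with 0.12 (-0.08 to 0.33, adjusted p = 0.573). For Zeb2 the log2 difference between LM-LM and LM was 0.19 (-0.02 to 0.40, adjusted p = 0.503), and it passed the threshold without LM3-LM (0.31, adjusted p = 0.0418).

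Single lines nevertheless differed. In F tests between the lines of a subtype, 6 of 7 tested members passed the threshold within MYAZ (74% of genes) and, without Epcam and Cdh2, 4 of 5 within LM (61.9%) and 4 of 5 within LM-LM (68.2%). Twist1 was higher in LM3 (117 CPM) and LM3-LM (113 CPM) than in LM1, LM2, LM1-LM and LM2-LM, whose means lay between 90.4 and 95.8 CPM (adjusted p = 1.58e-07 within LM and 1.79e-06 within LM-LM). Zeb2 was higher in LM1 (50.1 CPM) than in LM2 (38.6) and LM3 (38.7), and higher in LM1-LM (53.2) and LM2-LM (53.8) than in LM3-LM (39.9), with adjusted p = 1.59e-06 within LM and 4.21e-08 within LM-LM. LM2, LM3 and LM3-LM were next to Myc310 (36.9 CPM) in the order of Zeb2 levels, and neighbours there overlapped. Zeb1 was highest in LM2-LM (73.5 CPM), whose libraries did not overlap with those of the next line, LM1 (63.9 CPM).

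Of 27 mesenchymal effector genes, 24 were tested against MYAZ, some of them only because MYAZ expressed them, so that the counts are a description. In Myc310, 2 were higher and 18 lower (27.1% of all genes were lower), in LM 5 were higher and 17 lower (30.5% of all genes lower) and in LM-LM 5 and 17 (32.3%). Fn1, which encodes fibronectin, was at 890 CPM in MYAZ and 0.589 CPM in Myc310. Acta2 (smooth muscle actin) was at 5.97 CPM in MYAZ16.1e but 311 in MYAZ12.3i and 246 in MYAZ6.6g, and between 0.0278 and 1.71 CPM in the lineage. Lox, which encodes a collagen cross-linking enzyme, had a MYAZ mean of 5.25 CPM and 0 in Myc310 and LM. The effectors that went the other way included the metalloproteinase gene Mmp3 (0.318 CPM in MYAZ, 17.8 with Myc310, 37.2 with LM and 21.2 with LM-LM) and the calcium-binding protein gene S100a4 (87.1 CPM in MYAZ, 296 in Myc310). Mmp2 was at 1.34 CPM in MYAZ and 0.821 in Myc310, and at 55.7 in LM and 94.95 in LM-LM. The fibroblast list shares Pdgfra, Pdgfrb, Thy1, Col1a1, Col1a2, Col3a1 and Postn with the effectors, and Acta2 is on the effector and basal lists. Where most effectors were lower, the summed fibroblast list was 1.74 to 2.2 CPM in Myc310, 15.6 to 130 in LM and 34.2 to 223 in LM-LM. In MYAZ it was 23.7 to 143 CPM, and the part of this list was not tested. The 7 tested mammary basal markers were all lower in each of the 3 comparisons, which is likewise a description.

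Among 14 other EMT transcription factors, 11 were tested. In Myc310, 2 were higher and 6 lower, in LM 2 and 6, and in LM-LM 3 and 8, beside 50.9%, 60.8% and 62.8% of all genes called. Some of the lower ones, such as Sox4 and Prrx2, were near 0 in the lineage and entered the test through MYAZ, so that they had to differ. The same holds for genes of the signalling list below, such as Bmp4, and these counts too are a description. Twist2, the paralogue of Twist1, rose with it, from 4.50 CPM in MYAZ to 33.8 with Myc310, 38.5 with LM and 41.9 with LM-LM (log2 fold changes 2.902, 3.096 and 3.198, adjusted p = 1.29e-07, 5.35e-10 and 2.71e-10). Sox4, which encodes an HMG-box factor, was at 70.8 CPM in MYAZ and at 0.0688 (Myc310), 0.0138 (LM) and 0.00465 CPM (LM-LM). Foxc2, a forkhead factor gene, was higher in Myc310 (12.28 CPM) and LM (9.89 CPM) than in MYAZ (2.45 CPM). Of the 19 genes of TGF-beta and BMP signalling, all tested, 1 was higher and 11 lower in Myc310, 3 and 11 in LM, and 1 and 12 in LM-LM. Bmp4, a ligand, was at 10.8 CPM in MYAZ and below 0.05 in the lineage, whereas Eng, which encodes the co-receptor endoglin, was at 3.50 CPM in MYAZ, 1.86 with Myc310, 63.7 with LM and 97.46 with LM-LM, with high levels in LM1 (174 CPM), LM1-LM (190) and LM2-LM (97.8) and at most 10.5 CPM in LM2, LM3 and LM3-LM.

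Unlike Cdh1, Epcam and Esrp1, several epithelial genes were well above 0. Of 23 further epithelial identity genes 13 were tested, with 4 higher and 4 lower in Myc310, and 6 and 4 in LM and in LM-LM, beside 50.9%, 60.8% and 62.8% of all genes called. These counts, like those of the junction genes, are a description, since some of the lower genes (Esrp2 and Elf3 here, Dsc2 and Dsg2 among the junction genes) entered the test through MYAZ and had to be lower in Myc310. Krt8 was at 521 CPM in MYAZ and 1279 in LM (log2 fold change 1.30 ± 0.26 SE, adjusted p = 6.62e-05). Its line means were 794 CPM in MYAZ16.1e, 219 in MYAZ12.3i and 549 in MYAZ6.6g, and 876 in LM1, 1450 in LM2 and 1510 in LM3. LM1 was thus close to MYAZ16.1e. Esrp2, the paralogue of Esrp1, fell from 2.31 CPM in MYAZ to 0.0156 in Myc310. Ovol1, Ovol2, Elf5, Ehf and Mal2 had at most 1 count in any library. Of 20 genes for partners in cell junctions 14 were tested, with 3 higher and 5 lower in Myc310, and 5 and 7 in LM and in LM-LM, beside the same shares of all genes. The catenin genes Ctnnb1 and Ctnna1 encode links between cadherins and actin. As line means in control medium, Ctnnb1 was at 563 to 854 CPM in MYAZ and 551 to 615 in the lineage. Ctnna1 was at 447 to 482 CPM in MYAZ and 388 to 445 in the lineage. Ctnnd1, a further catenin gene, was at 500 to 624 CPM in MYAZ and 286 to 329 in the lineage, without overlap of line means. The desmosomal genes moved apart: Dsp (desmoplakin) was at 0.127 CPM in MYAZ16.1e, 0.582 in MYAZ12.3i and 13.4 in MYAZ6.6g, which carries the MYAZ mean, and 117 in Myc310 (log2 fold change 4.62 ± 0.99 SE, adjusted p = 0.000282), but at 0.858 CPM in LM1-LM, and Dsc2 (desmocollin) was at 6.91 CPM in MYAZ and 0.0425 in Myc310.

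**Figure D3:**
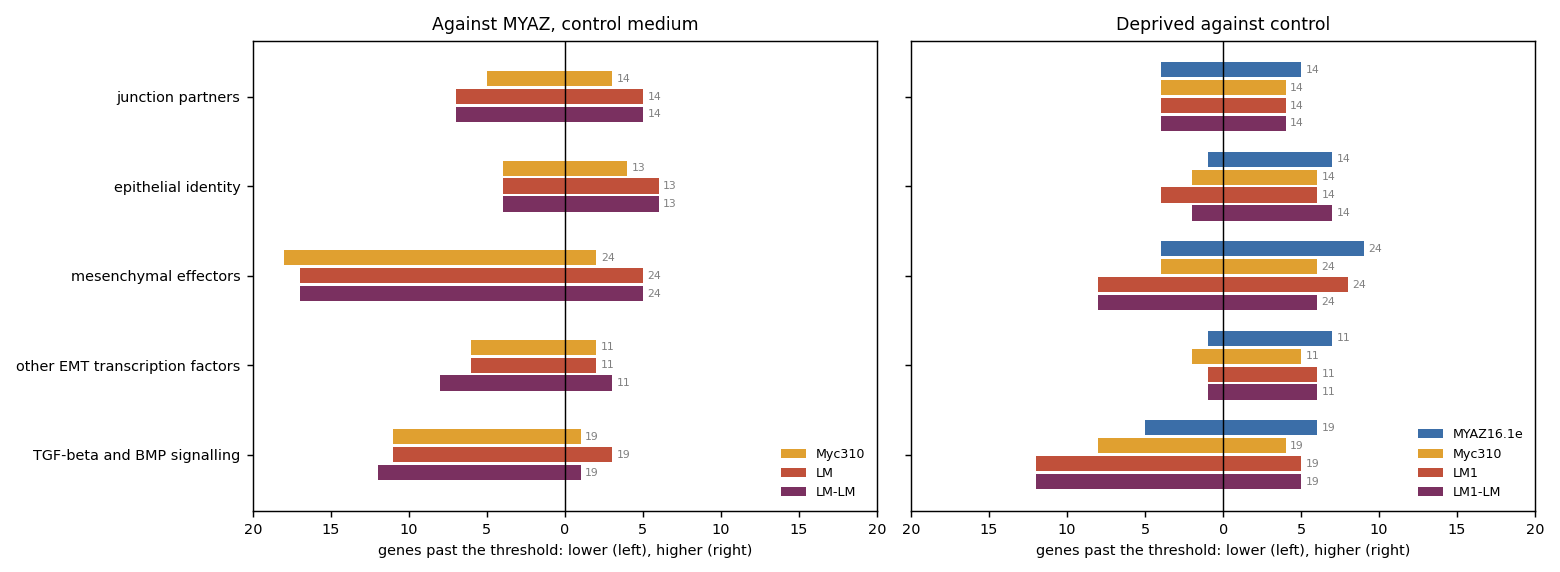
Number of genes past an adjusted p of 0.05, lower to the left and higher to the right, in 5 gene lists, for the 3 comparisons with MYAZ (left panel) and the 4 comparisons of deprived with control cells (right panel); the grey number is the number of genes tested. The mesenchymal effector list has 17 or 18 genes lower against MYAZ in each group and a more even split after deprivation.

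After 6 h without cysteine and cystine, Zeb2 rose and Twist1 fell in each of the 4 lines tested. Zeb2 went from 45.0, 44.8 and 46.8 CPM to 71.7, 66.5 and 72.7 in MYAZ16.1e, and from 38.0, 37.8 and 35.1 to 74.0, 74.7 and 81.3 in Myc310. In LM1 it went from 52.2, 46.6 and 51.4 CPM to 115.7, 114.8 and 110.8, and in LM1-LM from 50.7, 55.1 and 53.7 to 127.5, 125.2 and 126.3. No deprived library overlapped with a control library of its line. The fold was 1.54 in MYAZ16.1e (log2 0.62 ± 0.05 SE, adjusted p = 2.26e-12), 2.05 in Myc310 (log2 1.04 ± 0.05, adjusted p = 5.59e-18), 2.33 for LM1 (log2 1.22 ± 0.05, adjusted p = 1.65e-20) and 2.44 for LM1-LM (log2 1.29 ± 0.05, adjusted p = 2.06e-21). Zeb2os, the antisense gene, had 7 to 29 counts per deprived library and 3 to 19 per control library of these lines, and this difference was not tested.

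Twist1 went from 17.7, 19.8 and 19.9 CPM to 14.5, 14.4 and 14.7 in MYAZ16.1e, from 84.8, 80.6 and 78.8 to 49.5, 46.4 and 48.5 in Myc310, from 95.02, 93.5 and 97.3 to 51.6, 48.6 and 46.5 in LM1, and from 101.5, 95.8 and 90.1 to 48.0, 48.4 and 49.6 in LM1-LM. The deprived libraries of Myc310, LM1 and LM1-LM all lay between 46.4 and 51.6 CPM, still above those of MYAZ16.1e. On the log2 scale the level fell by 0.41 in MYAZ16.1e (SE 0.06, adjusted p = 2.47e-06), by 0.77 in Myc310 (SE 0.05, adjusted p = 1.61e-15), by 0.93 in LM1 (SE 0.05, adjusted p = 1.07e-17) and by 0.94 in LM1-LM (SE 0.05, adjusted p = 5.42e-18). The mean of Twist2 was 33.8 CPM in control Myc310 cells and 29.5 after deprivation (log2 -0.21 ± 0.07 SE, adjusted p = 0.00916), and in LM1 it was 35.2 and 38.0 CPM.

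**Figure D4:**
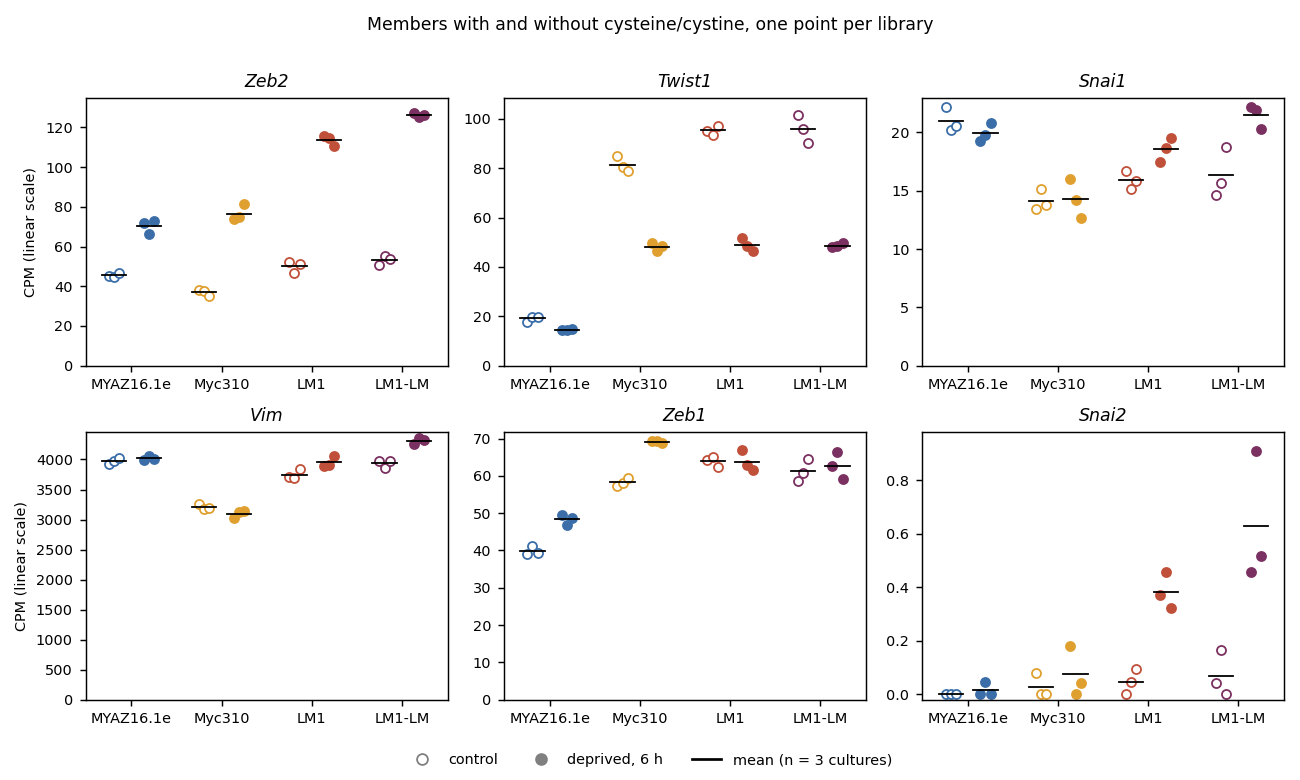
Levels in CPM on linear axes of 6 members in control medium (open points) and after 6 h without cysteine and cystine (filled points) in the MYAZ16.1e line and in Myc310, LM1 and LM1-LM; each point is 1 library and bars are means of 3 cultures. Zeb2 is higher and Twist1 lower after deprivation in each line without overlap, and Snai2 rises above 0.3 CPM in LM1 and LM1-LM while staying under 1 CPM.

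Snai1 was 16.7, 15.1 and 15.9 CPM in LM1 and 17.4, 18.6 and 19.5 after deprivation (log2 fold change 0.26 ± 0.09 SE, adjusted p = 0.00768), and 14.6, 15.7 and 18.8 CPM in LM1-LM and 22.2, 21.9 and 20.3 after deprivation (0.44 ± 0.08, adjusted p = 2.23e-05). The LM1 call was lost without replicate 2 (adjusted p = 0.121) and without replicate 3 (adjusted p = 0.0537). In MYAZ16.1e the log2 difference was -0.07 (95% interval -0.24 to 0.09, adjusted p = 0.475) and in Myc310 0.01 (-0.18 to 0.18, adjusted p = 0.973). Snai2 counts were 0, 1 and 2 in LM1 and 8, 10 and 7 after deprivation, a ratio of 8.04 (95% exact interval 2.45 to 41.6). In LM1-LM they were 1, 4 and 0 and then 12, 18 and 11, a ratio of 8.38 (3.31 to 27.2), whereas Myc310 went from 2, 0 and 0 to 4, 0 and 1 (2.62, 0.429 to 27.5) and MYAZ16.1e had 0, 0 and 0 and then 0, 1 and 0. These intervals cover counting error only. Snai2 did not pass the filter, and in the fit without a filter it was called for LM1 (adjusted p = 0.0062) and LM1-LM (adjusted p = 0.000909) but not for Myc310 (adjusted p = 0.556) or MYAZ16.1e (adjusted p = 0.562). A difference between these responses was not shown: the test of the response against that of MYAZ16.1e gave an adjusted p of 1 for LM1 and LM1-LM and of 0.885 for Myc310.

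Zeb1 rose in MYAZ16.1e and Myc310. It went from 39.0, 41.2 and 39.4 CPM to 49.6, 47.0 and 48.8 in MYAZ16.1e (log2 fold change 0.28 ± 0.05 SE, adjusted p = 7.06e-06) and from 57.4, 58.1 and 59.5 to 69.3, 69.2 and 68.7 in Myc310 (0.23 ± 0.04, adjusted p = 2.02e-05), with no overlap. For LM1 the difference was 0.03 (95% interval -0.06 to 0.12, adjusted p = 0.507) and for LM1-LM 0.07 (-0.02 to 0.16, adjusted p = 0.157), which passed the threshold without replicate 3 (0.14, adjusted p = 0.0175). Vim changed by at most 0.17 on the log2 scale, being higher in LM1 (0.11 ± 0.02 SE, adjusted p = 1.39e-05) and LM1-LM (0.17 ± 0.02, adjusted p = 1.45e-08), lower in Myc310 (-0.07 ± 0.02, adjusted p = 0.00492) and not called in MYAZ16.1e (0.01, 95% interval -0.03 to 0.06, adjusted p = 0.631). The Myc310 call for Vim was lost without replicate 1 (adjusted p = 0.122) and with only the libraries of that line (adjusted p = 0.0514). Cdh2 in MYAZ16.1e was 79.1, 75.5 and 74.95 CPM in control medium and 78.4, 74.6 and 75.2 after deprivation (log2 difference -0.01, 95% interval -0.15 to 0.12, adjusted p = 0.889). In Myc310 it went from 2, 4 and 1 counts to 0, 1 and 0 (adjusted p = 0.0452), at the limit of detection, and the call was lost in 5 of 7 alternatives. Cdh1 stayed at 6 counts or fewer, Esrp1 at 2 or fewer, and Epcam in MYAZ16.1e at 8, 9 and 20 counts.

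In all, deprivation called 3 of the 7 tested members in MYAZ16.1e (53.7% of 13400 genes were called, 26.6% upwards and 27.1% downwards). In the lineage lines, with Epcam and Cdh2 left out for their few counts, it called 4 of 5 in Myc310 (66.8%, 32.8% and 33.9% of genes), 4 of 5 in LM1 (71.1%, 35.8% and 35.3%) and 4 of 5 in LM1-LM (72.4%, 36.5% and 35.9%). Most genes were thus called, and a call alone sets no member apart. The difference between the response of each lineage line and that of MYAZ16.1e was tested directly, with 3 of these 5 members called for Myc310 (40.3% of genes) and all 5 for LM1 (52.2%) and LM1-LM (54.8%). These 3 comparisons share the MYAZ16.1e libraries. The rise of Zeb2 was larger than in MYAZ16.1e by 0.42 ± 0.07 (SE, log2) in Myc310 (adjusted p = 9.12e-06), 0.60 ± 0.07 for LM1 (adjusted p = 5.14e-09) and 0.67 ± 0.07 for LM1-LM (adjusted p = 4.22e-10). The fall of Twist1 was larger too, with differences of -0.36 ± 0.08 for Myc310 (adjusted p = 0.000364), -0.52 ± 0.08 for LM1 (adjusted p = 1.53e-06) and -0.53 ± 0.08 for LM1-LM (adjusted p = 8.45e-07). Snai1 responded more in LM1 (0.33 ± 0.12, adjusted p = 0.0177, lost without replicate 2 with 0.132) and LM1-LM (0.51 ± 0.12, adjusted p = 0.000362), and Zeb1 less in LM1 (-0.24 ± 0.06, adjusted p = 0.00165) and LM1-LM (-0.21 ± 0.06, adjusted p = 0.00573, lost without replicate 3 with 0.229). Differences between the lineage lines themselves were not tested.

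**Figure D5:**
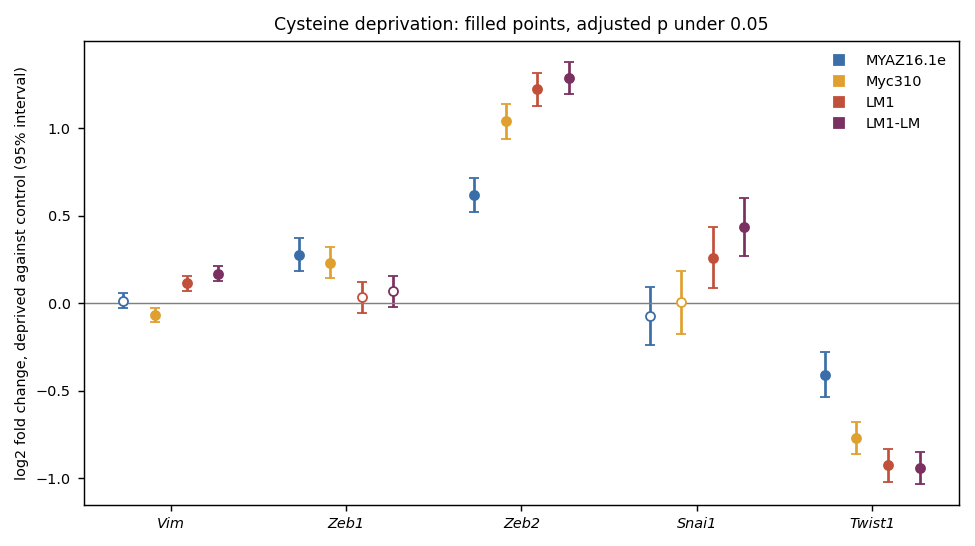
Log2 fold changes of deprived against control cells with 95% intervals for 5 members in 4 lines; filled points passed an adjusted p of 0.05 in edgeR's quasi-likelihood test. Zeb2 ranges from 0.62 in MYAZ16.1e to 1.29 in LM1-LM, Twist1 from -0.41 to -0.94, and Vim stays within 0.2 of 0.

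Counts in the lists of other genes of the transition stand beside the shares of all genes called. Of all genes, 26.6% rose and 27.1% fell in MYAZ16.1e, 32.8% and 33.9% in Myc310, 35.8% and 35.3% in LM1, and 36.5% and 35.9% in LM1-LM. These shares hold for each list below. Of the 11 tested EMT transcription factors outside the members, 7 rose and 1 fell in MYAZ16.1e (median log2 fold change 0.28, against 0 over all genes, of which 53.7% were called), 5 and 2 in Myc310 (0.77, with 66.8% of genes called), 6 and 1 in LM1 (0.78, 71.1%) and 6 and 1 in LM1-LM (0.60, 72.4%). Runx2 rose in each line, for example from 18.8 to 52.4 CPM in LM1 (log2 1.52 ± 0.06 SE, adjusted p = 1.79e-20), and Sox9 rose in LM1 from 0.354 to 3.19 CPM (log2 3.20 ± 0.24, adjusted p = 3.91e-13), while Tcf3, whose product E2A pairs with TWIST1, fell in each (by 0.65 on the log2 scale in LM1-LM, adjusted p = 6.65e-17). Among the mesenchymal effectors, 9 rose and 4 fell in MYAZ16.1e, 6 and 4 in Myc310, 8 and 8 in LM1 and 6 and 8 in LM1-LM. Fn1 rose in LM1 from 6.08 to 45.0 CPM and in LM1-LM from 11.99 to 92.8 CPM, well below its 381 CPM in MYAZ16.1e in control medium. In TGF-beta and BMP signalling 6 rose and 5 fell in MYAZ16.1e, 4 and 8 in Myc310, 5 and 12 in LM1 and 5 and 12 in LM1-LM. The feedback inhibitor genes Smad7 and Skil rose together, from 27.6 to 67.9 CPM and from 47.0 to 114 CPM in LM1, and the ligand gene Tgfb2 fell from 1.84 to 0.460 CPM there. Of 14 tested epithelial identity genes, 7 rose and 1 fell in MYAZ16.1e, 6 and 2 in Myc310, 6 and 4 in LM1 and 7 and 2 in LM1-LM. Of 14 junction genes, 5 rose and 4 fell in MYAZ16.1e, and 4 rose and 4 fell in each of the other 3 lines. Klf5, an epithelial Krüppel-like factor, rose from 41.1 to 204 CPM in LM1 (log2 2.34 ± 0.03, adjusted p = 2.06e-31), whereas of the junction genes Ocln (occludin, a tight junction protein) fell from 2.32 to 0.153 CPM and Jup (plakoglobin) from 115 to 61.3 CPM. The summed fibroblast list fell in LM1 from 15.6 to 18 CPM to 10.9 to 11.8 and in LM1-LM from 59.3 to 65.2 to 27.9 to 30.4, mostly through Col3a1. The endothelial list fell in LM1 from 29.9 to 33.8 CPM to 20.9 to 22.4 and in LM1-LM from 36.1 to 37.1 to 24.9 to 28.3. The basal list went from 13.9 to 18 CPM to 5.43 to 6.02 in LM1 and from 11.9 to 13.6 to 5.24 to 6.11 in LM1-LM. The alveolar list went from 0.813 to 1.27 CPM to 0.322 to 0.511 in LM1 and from 0.457 to 0.746 to 0.0504 to 0.306 in LM1-LM. In Myc310 the basal list went from 8.56 to 9.35 CPM to 4.84 to 5.92, the endothelial list from 40.4 to 42.7 to 37.2 to 39.1 and the fibroblast list from 1.74 to 2.2 to 2.77 to 2.9. The leukocyte list rose from 9.55 to 10.4 CPM to 11.8 to 13.5 in Myc310 and from 9.54 to 10.2 to 11.7 to 13.7 in LM1, and overlapped in LM1-LM. The luminal list was higher after deprivation in each of the 4 lines without overlap, for example 1190 to 1210 CPM and then 1510 to 1550 in LM1. The part of these lists was not tested.

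In the NDI1 derivative of MYAZ12.3i, 3 of 6 tested members were called lower than in the parent line, where 17.4% of 12841 genes were called (8.14% higher and 9.27% lower). Vim was 2641, 2604 and 2586 CPM, against 2850, 2745 and 2786 in the parent (log2 -0.10 ± 0.03 SE, adjusted p = 0.0131). Zeb2 was 63.8, 66.6 and 64.6 CPM against 75.8, 69.0 and 70.1 (-0.15 ± 0.04, adjusted p = 0.0336), and Twist1 22.09, 21.3 and 23.1 against 22.4, 28.2 and 28.0 (-0.25 ± 0.08, adjusted p = 0.0425), the latter with overlap. Each difference was under 0.3 on the log2 scale and each call was lost in some alternatives, with 0 to 1 members called when replicate 1 or 3 was left out and 1 with DESeq2. Cdh2 (78.5, 76.6 and 74.5 CPM against 72.5, 68.4 and 72.6) and Snai1 (42.2, 42.3 and 42.6 against 41.0, 39.1 and 42.1) were not called (adjusted p = 0.109 and 0.467). The summed basal list was 237 to 246 CPM in NDI1 and 337 to 358 in the parent, the endothelial list 108 to 115 and 118 to 123, and the alveolar list 9.62 to 10.7 and 11.1 to 12.2. The luminal list (425 to 439 CPM and 406 to 418) and the fibroblast list (144 to 152 and 138 to 143) were higher in NDI1, and the leukocyte sums overlapped. The part of these lists was not tested.

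Over the 10 control line means, the genes whose log2 levels followed a member most closely were found by Pearson correlation among 8973 genes (8974 for Epcam and Cdh2) whose log2 CPM averaged 3 or more. For the members whose levels separate MYAZ from the Myc310 lineage, r also describes that split, and r within the 7 lineage lines is given beside it. The closest genes were picked from all genes compared, over 10 lines that include these 7. A high r is thus in part due to the picking, and r within the lineage is not a separate check. For Twist1 the closest were Srgn (r = 0.993), Tmem252 (0.991) and Kcnab2 (0.988), and within the 7 lineage lines their r was 0.812, 0.754 and 0.3. For Zeb2 they were Lhfp (0.9754), Cop1 (0.956) and Mrpl11 (0.949), with 0.953, 0.909 and 0.95 within the lineage. For Zeb1 they were Cwc15 (0.978), Ube3a (0.974) and Atf6 (0.974), with 0.908, 0.859 and 0.883 within the lineage. For Snai1 they were Peli1 (0.984), Arel1 (0.978) and Paip2 (0.977), with 0.753, 0.805 and 0.697. For Vim, whose groups overlapped, they were Pgp (0.958), Surf2 (0.945) and Yipf1 (0.941), with 0.894, 0.862 and 0.795. For Cdh2, Rtf2 (0.993), Sgo1 (0.992) and Ncaph (0.992) were closest, with r of -0.289, -0.386 and 0.607 within the lineage, where Cdh2 was near 0. For Epcam, Arl14ep, Foxp4 and Fam98b were closest, each at 0.989, with 0.299, 0.624 and 0.885 within the lineage, where Epcam was near 0.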

How the data were processed

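Polyadenylated RNA of 45 cultures was sequenced from both ends. According to the study's methods, the authors used an nf-core workflow that aligned reads with STAR and estimated gene counts with RSEM, and the labels name the build GRCm38. The deposited values are estimated counts per gene (whole numbers, not normalized) for 28454 genes. Rows without a symbol held 1.18% of the counts and stayed in the fits by identifier. Such counts split reads between overlapping and near-identical genes, so that low values are uncertain. Each of the 45 columns was matched to its culture by name.

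Computations used R 4.3.3 with edgeR 4.0.16. Genes were filtered with filterByExpr, scaled with TMM and compared with edgeR's quasi-likelihood test, adjusted with Benjamini-Hochberg over all genes tested, at a threshold of 0.05. The subtype and line models held the 30 control libraries (13795 genes), the deprivation model 24 libraries in groups of line and condition (13400 genes), with interaction contrasts between lines, and the NDI1 model 6 libraries (12841 genes). Exact permutation tests compared the means of lines on log2 CPM with a prior count of 2, two-sided. Count ratios have 95% exact conditional intervals. The fits were tested on simulated data. Gene positions come from GENCODE mouse release 21 and promoter windows from RefSeq.

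The members, the gene lists and the naming rule were chosen with earlier results of these data known. Named were the members, in each list the largest rises and falls (up to 2 each way, called, without overlap) against MYAZ and under deprivation, of which some are printed, and the 3 genes most correlated with each member; other list genes were named after their values were seen. Alternatives were RLE normalization, no filter, at least 10 counts in every library, DESeq2 1.42.0, the replicate number as a block, voom of limma 3.58.1 with lines as random blocks, counts summed per line, fewer or more libraries in the fit, and leaving out each line or replicate number. The replicate numbers do not pair the cultures.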

Additional observations from a re-analysis of the deposited data

Results flagged for a closer look

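The response to deprivation of several members differed from that of MYAZ16.1e in the interaction test of edgeR's deprivation model. For Zeb2 the log2 difference between responses was 0.42 (Myc310), 0.60 (LM1) and 0.67 (LM1-LM), and for Twist1 it was -0.36, -0.52 and -0.53 in the same order. Vim differed by -0.081 (Myc310), 0.10 (LM1) and 0.156 (LM1-LM). The Vim call for Myc310 was lost without a filter (adjusted p = 0.0629), without replicate 1 (0.282) and without replicate 2 (0.13), and that for LM1 without replicate 3 (0.0571). For Zeb1 the difference was -0.24 in LM1 and -0.21 in LM1-LM, and for Snai1 it was 0.33 in LM1 and 0.51 in LM1-LM. The same 3 MYAZ16.1e control and 3 deprived libraries enter each of these values.

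In 21 groups of 9 control libraries that were examined for a library far from the others by Dixon's test, 1 was found, where chance gives about 1 in 20: Snai2 in LM1-LM replicate 2 was at 0.166 CPM, from 4 counts.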

How the results depend on the processing

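Snai1 and Twist1 kept their direction and their calls against MYAZ in the alternatives run, as did Zeb2 and Twist1 under deprivation. The replicate number as a block changed none of the member calls, with 6 called in LM against MYAZ, and moved 1 count over all genes, LM-LM against LM (from 106 to 68). Same-numbered cultures did not deviate together (median correlation 0.0112 over 315 pairs), and 4 of 24 libraries in the deprivation groups correlated best with their own number. The counts of called members moved by over 1.5 times in these cases: without LM3-LM, 1 member (Zeb2) between LM-LM and LM; 3 members in deprived Myc310 with only its own libraries, from 5 with Cdh2 counted (from 4 without Cdh2, as Vim was lost); 1 in NDI1 with DESeq2. Leaving out a replicate number gave 3 to 4 members in deprived Myc310 and 0 to 2 in NDI1. Smaller moves included those from 6 of the 7 members, Epcam and Cdh2 included, to between 4 and 7 against MYAZ (4 with voom in Myc310, where Epcam and Zeb1 were lost, and 4 in each comparison with at least 10 counts, where Epcam and Cdh2 were not tested) and from 4 to 3 between the LM lines without replicate 2 or 3 (Snai1). Over all genes, calls between LM-LM and LM numbered 65 without a filter, 30 with at least 10 counts in every library, 236 with DESeq2, 0 with sums per line or voom, 596 without LM1, 30 without LM2, 18 without LM2-LM, 181 without LM3, 2063 without LM3-LM and 0 without any 1 replicate number. Between LM and Myc310 they numbered 428 with at least 10 counts, 37 with voom, 1495 without LM1, 451 without LM3 and 188 to 203 without a replicate number (main 681). NDI1 had 898 to 1326 without a replicate number (main 2236). Against MYAZ, sums per line gave 3788 (LM) and 4226 (LM-LM) genes, and voom 2819 (Myc310), 4759 (LM) and 5054 (LM-LM). The cause of these shifts was not tested beyond the fewer samples or genes of the fit.

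Changes of sign occurred in log2 values near 0. Against MYAZ, Vim was 0.11 in Myc310 without MYAZ16.1e, and -0.022 in LM and -0.013 in LM-LM without MYAZ12.3i. Between LM-LM and LM, Vim was -0.064 without LM1-LM and -0.032 without LM2; Snai1 -0.021 without LM1, -0.034 without LM2 and -0.028 without LM3-LM; Zeb1 -0.049 and Twist1 0.035 without LM2-LM; and Twist1 0.093 without LM3. With a replicate number left out, these ranged from -0.006 to 0.027 (Vim), -0.016 to 0.059 (Snai1) and -0.06 to 0.007 (Twist1). In Myc310, Snai1 under deprivation was -0.001 without a filter and -0.124 to 0.067 without a replicate number, and its difference from the response of MYAZ16.1e -0.112 to 0.193. In NDI1, Zeb1 was -0.056 to 0.012 without a replicate number. Depth does not resolve Cdh1, Esrp1, Snai2 or lineage Cdh2 levels, which rest on few counts.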
